A study of Mus musculus with 11 samples.

Results

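The genes described here are 40 genes of the cell division cycle, chosen by name and found in the table of 16894 mouse genes by their Entrez identifiers. They comprise 14 genes of DNA synthesis (S phase), 23 genes of mitosis and 3 regulators of the preceding G1 phase. All 40 were present and all 40 were tested in each comparison. RNA was sequenced from microglia, the resident macrophages of the mouse brain, in 11 libraries that all carry the Cx3cr1-GFP genotype, a fluorescent reporter in the locus of a fractalkine receptor. The 3 cultured libraries came from primary microglia in cell culture, the 4 resident libraries from resident cells sorted by fluorescence, and the 4 transplanted libraries from transplanted cells sorted 3 months after transplantation. The labels attach to every library, cultured cells included, a protocol in which mice received PLX3397, an inhibitor of the receptor Csf1r, at 600 mg/kg in chow over 3 depletion cycles. They do not say whether the donors of resident cells were treated, nor where the transplanted cells came from. The series asks how closely transplanted cells take on the expression programme of naive microglia. Whether the libraries of a group are separate cultures or animals is not stated, so the tests gauge only library-to-library spread, which may be technical.

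A cell that divides first passes G1, where D-type cyclins and the inhibitors encoded by Cdkn1a (p21) and Cdkn1b (p27) set whether the cyclin-dependent kinases become active. Factors of the E2f family then switch on the genes of replication licensing and nucleotide supply, and later the genes of mitosis are switched on through MuvB complexes with B-Myb and Foxm1. Mitotic genes are transcribed mainly in G2 and mitosis, whereas many S phase genes keep a basal level outside the cycle. Adult microglia divide rarely, and they are known to divide when they refill a brain from which microglia were depleted.

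Sequences before the start of 4 members are shown because they carry the motifs by which the S phase and mitosis genes are known to differ. Of the 40 members, 33 had a promoter window in the RefSeq table of build GRCm38.p6 (35 windows of 300 bases, of which 50 lie after the start). An E2F motif (TTTCCCGC or TTTGGCGC, either strand) lay in 6 of 14 S phase windows (42.9%), in 0 of 18 mitosis windows, and in 2.44% of the 16925 windows of genes in the deposited table. The CHR motif (TTTGAA or TTCGAA, either strand) lay in 14 of 18 mitosis windows (77.8%), in 2 of 14 S phase windows (14.3%) and in 15.1% of all. CCAAT, the motif of NF-Y, lay on either strand in 88.9% of mitosis windows, 64.3% of S phase windows and 37.6% of all. CHR and CCAAT stood together in 77.8% of mitosis windows, 14.3% of S phase windows and 6.29% of all. The members shown are the S phase genes with the most E2F matches before the start and the mitosis genes with the most CHR and CCAAT matches. Cdc6, with 1 E2F match, is tied with Mcm5 and Mcm7 and was taken for its larger fold change between cultured and resident cells. The gene Mcm3 holds 2 E2F matches as well, but they begin 20 and 39 bases after its start and are therefore not shown. Each sequence is the 250 bases before the start, 5′ to 3′ on the strand of the gene, with matches in capitals on either strand: E2F in Mcm6 (chr1:128359706-128359955, minus strand) and Cdc6 (chr11:98907901-98908150, plus strand), CHR and CCAAT in Top2a (chr11:99024190-99024439, minus strand) and Ube2c (chr2:164769679-164769928, plus strand).
Mcm6: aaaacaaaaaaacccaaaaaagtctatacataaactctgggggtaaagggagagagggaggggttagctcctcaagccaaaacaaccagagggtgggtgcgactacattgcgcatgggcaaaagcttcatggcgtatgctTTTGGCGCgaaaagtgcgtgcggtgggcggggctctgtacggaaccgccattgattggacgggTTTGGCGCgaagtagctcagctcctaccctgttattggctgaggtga
Cdc6: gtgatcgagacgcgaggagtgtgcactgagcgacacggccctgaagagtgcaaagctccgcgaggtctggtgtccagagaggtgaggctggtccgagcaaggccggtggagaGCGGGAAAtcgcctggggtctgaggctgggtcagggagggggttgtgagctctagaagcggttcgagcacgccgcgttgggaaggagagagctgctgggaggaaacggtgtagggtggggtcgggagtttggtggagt
Top2a: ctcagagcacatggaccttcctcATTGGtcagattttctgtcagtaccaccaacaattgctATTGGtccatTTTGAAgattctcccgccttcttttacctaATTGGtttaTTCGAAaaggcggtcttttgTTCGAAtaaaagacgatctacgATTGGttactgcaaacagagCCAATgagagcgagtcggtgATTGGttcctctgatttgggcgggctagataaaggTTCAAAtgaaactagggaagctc
Ube2c: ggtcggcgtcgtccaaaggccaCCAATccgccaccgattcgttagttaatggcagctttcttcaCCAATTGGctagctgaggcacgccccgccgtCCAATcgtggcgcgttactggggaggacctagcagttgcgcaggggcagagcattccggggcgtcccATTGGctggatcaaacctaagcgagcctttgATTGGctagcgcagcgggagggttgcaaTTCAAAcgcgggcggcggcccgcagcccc
The E2F matches of Mcm6 begin at bases -110 and -47 from the start, and the match of Cdc6 at base -138. Top2a holds 4 CHR and 6 CCAAT matches, and Ube2c holds 1 CHR and 6 CCAAT matches, of which a pair overlap on opposite strands. Among the mitosis members with a window, Birc5 and Nusap1 held neither CHR nor CCAAT, and Ccnb1 and Cenpe held CCAAT only. The start is that of the promoter table. For Cdc6 it lies inside the gene span given further down, so it is not the outermost annotated start, and for Top2a the window reaches a few bases into the gene span. A match describes the letters of the window and is not a test of binding.

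Levels are given in CPM, which is the expected count scaled to a common library total, made from the deposited expected counts with TMM scaling over all libraries. Library totals were 26705034 to 28219696 expected counts in cultured, 19055655 to 19965631 in resident and 18692721 to 19761208 in transplanted cells, so that 3 counts correspond to 0.106 to 0.161 CPM of the plain total. Calls rest on edgeR's quasi-likelihood test with Benjamini-Hochberg adjustment over all genes, at an adjusted p under 0.05, and every adjusted p below is from that test. Errors of log2 fold changes are standard errors. The summed level of 7 defining microglial markers was 35270 to 40680 CPM in resident and 30670 to 37990 CPM in transplanted libraries, but 1413 to 1899 CPM in cultured libraries, in which Siglech stood at 0.436 to 0.907 CPM and Tmem119 at 8.81 to 13.4 CPM.

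Transplanted replicate 4 stood apart from the other transplanted libraries in the mitosis genes. Its level was the highest of the transplanted libraries for 23 of 23 mitosis members, at a median of 3.55 times (1.48 to 7.65) the geometric mean of the other libraries, and at least 2-fold higher for 21 of them. The S phase members did not share this, with a median of 1.02 times and only Rrm2, the regulated subunit of ribonucleotide reductase, above 2-fold. Over all 11929 genes the median was 1.00 and 2.60% were at least 2-fold higher. Cultured replicate 2 was lower than the geometric mean of the other cultured libraries in most S phase members, at a median of 0.731 times. For 47 other replication genes the median was 0.9085 times. In resident replicate 1, Ccnd1 and Cdkn1a were the highest of the resident libraries. Values without these libraries are given beside the results that they move most.

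**Figure D1:**
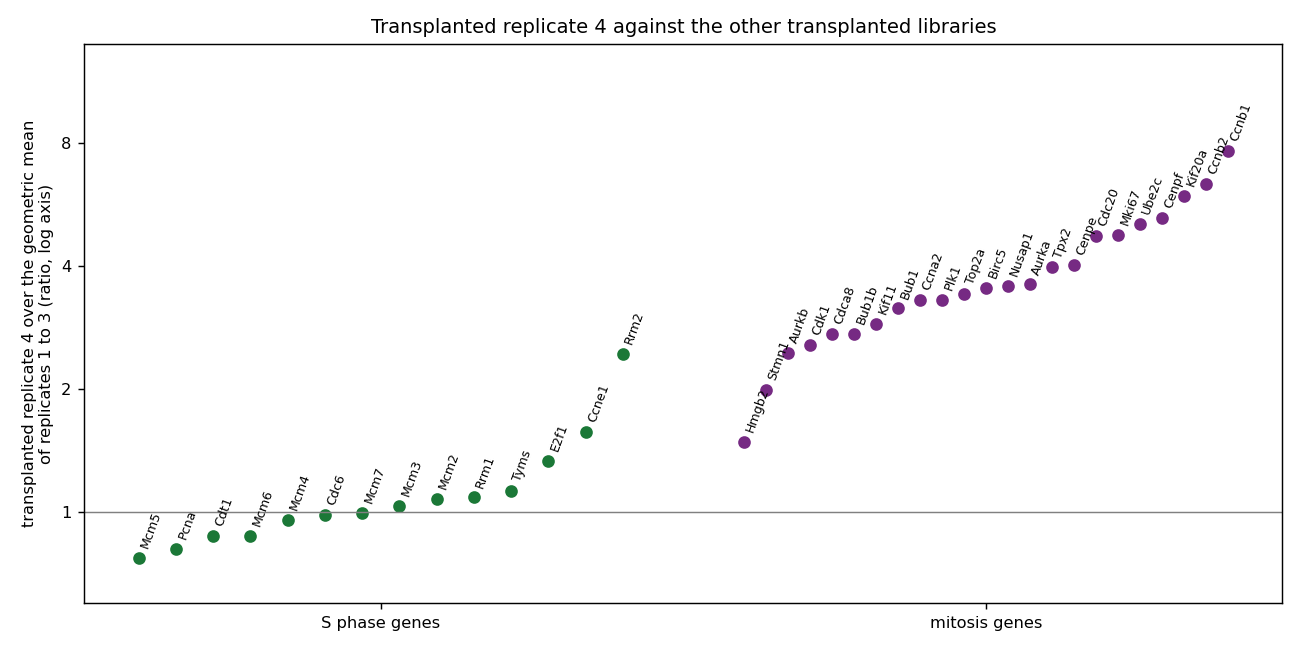
Level of each S phase gene (green) and mitosis gene (purple) in transplanted replicate 4, divided by the geometric mean of transplanted replicates 1 to 3, on a log axis. The mitosis genes lie between 1.48 and 7.65, while 13 of the 14 S phase genes lie below 2.

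Summed over each list in CPM, cultured cells had the highest levels of both S phase and mitosis genes. The 23 mitosis genes summed to 976.7, 976.9 and 977.3 CPM in cultured replicates 1 to 3. The sums were 73.99, 79.0, 63.86 and 84.86 CPM in resident replicates 1 to 4, and 93.87, 117.0, 90.88 and 320.1 CPM in transplanted replicates 1 to 4. Each transplanted library thus lay above each resident library in CPM, and replicate 4 lay far above the other transplanted libraries. On TPM the sorted groups overlapped. The sum of transplanted replicate 3, at 97.34 TPM, lay below that of resident replicate 4, while the other transplanted libraries lay above every resident library. In CPM, the mean over cultured libraries was 13.0 times the resident mean. The transplanted mean was 2.06 times the resident mean, or 1.33 times without transplanted replicate 4. The 14 S phase genes summed to 735.9, 554.4 and 690.6 CPM in cultured, 292.9, 295.4, 263.0 and 295.2 CPM in resident, and 286.1, 283.2, 272.5 and 282.7 CPM in transplanted replicates. Their cultured mean was 2.30 times the resident mean, and the transplanted and resident sums overlapped at a ratio of 0.981. No test was run on the sums. In such bulk samples, fewer cycling cells and less RNA of these genes per cell cannot be told apart.

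**Figure D2:**
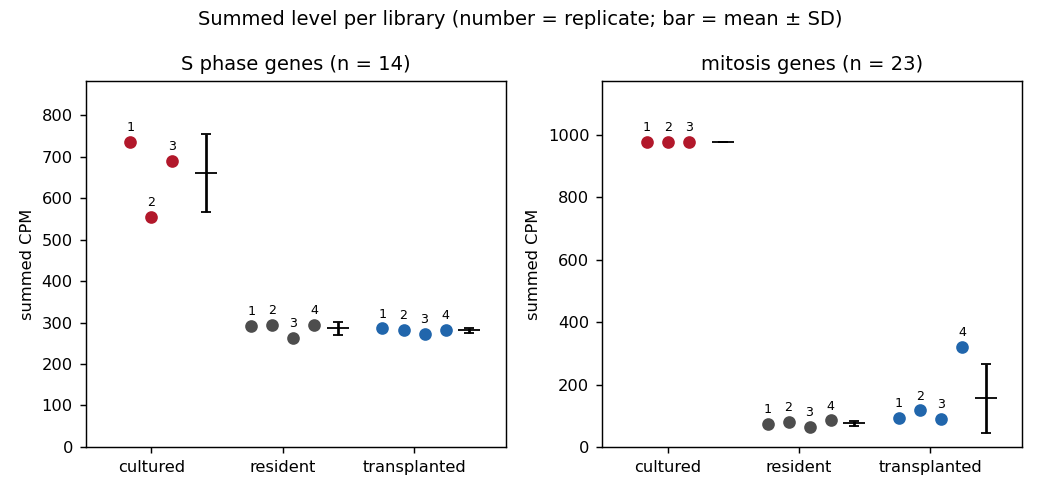
Summed CPM of the 14 S phase genes (left) and the 23 mitosis genes (right) in each library, numbered by replicate, with the mean and SD of each group as a bar. Cultured libraries lie highest in both panels, and transplanted replicate 4, at 320.1 CPM, is the only sorted library above 117.0 CPM in the mitosis panel.

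In cultured against resident microglia, all 23 mitosis genes rose in the cultured cells, and 13 of the 14 S phase genes rose, the exception being Mcm3. The median log2 fold change was 4.13 for mitosis genes (2.51 to 5.53) and 1.56 for S phase genes (0.12 to 4.81), against -0.02 over the 12406 genes tested. Of all genes tested, 37.9% were called higher and 37.2% lower, so a call by itself was common in this comparison. Of the G1 regulators, Cdkn1a rose while Ccnd1 and Cdkn1b fell.

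Replication licensing loads the Mcm2 to Mcm7 helicase onto origins with the help of Cdc6 and Cdt1. Mcm2 (chr6:88883474-88898780) stood at 46.3, 24.1 and 48.7 CPM in cultured, and at 15.4, 16.9, 12.4 and 15.8 CPM in resident replicates. The lowest cultured library, replicate 2, still exceeded each resident library, and Mcm2 rose by 1.43 ± 0.23 on the log2 scale (adjusted p = 0.000415). Mcm4, Mcm5, Mcm6 and Mcm7 rose by 1.01 to 1.77. Mcm3 (chr1:20802966-20820312) stood at 86.1, 58.3 and 85.6 CPM in cultured, and at 75.3, 70.8, 69.3 and 74.4 CPM in resident replicates. Its cultured libraries fell on both sides of the resident ones, and the difference of 0.12 ± 0.14 was not called (adjusted p = 0.467). Without cultured replicate 2, Mcm3 was called higher at 0.25 ± 0.07 (adjusted p = 0.00928). Cdc6 (chr11:98907709-98923942), which loads the helicase, was near the detection floor in resident cells (0.317, 1.26, 0.143 and 0.457 CPM) and stood at 6.63, 3.63 and 5.12 CPM in cultured cells. It rose by 3.26 ± 0.56 (adjusted p = 0.000583), and its partner Cdt1 rose by 1.11 ± 0.13 (adjusted p = 4.14e-05). The helicase subunits had a resident level of 12.4 CPM or more in every library for Mcm2, whereas Cdc6 was at most 1.26 CPM there.

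The sliding clamp gene Pcna (chr2:132249286-132253180) stood at 97.4, 94.3 and 88.8 CPM in cultured replicates. In resident replicates it stood at 39.9, 27.3, 25.1 and 29.9 CPM. The groups did not overlap, and Pcna rose by 1.65 ± 0.16 (adjusted p = 1.34e-05). Ribonucleotide reductase, which makes deoxynucleotides, has a large subunit encoded by Rrm1 and a small subunit encoded by Rrm2. Rrm2 (chr12:24708254-24714146) stood at 26.2, 20.4 and 26.7 CPM in cultured and at 1.22, 0.748, 0.238 and 1.33 CPM in resident replicates. It rose by 4.81 ± 0.39 (adjusted p = 4.25e-06), the largest change among the S phase genes, while Rrm1 rose by 1.48 ± 0.20 (adjusted p = 0.000138). Tyms (chr5:30038546-30073645), the thymidylate synthase, stood at 49.9, 53.9 and 50.4 CPM in cultured and at 39.2, 45.9, 40.4 and 47.2 CPM in resident replicates. The groups did not overlap, but the difference was small, 0.29 ± 0.11 (adjusted p = 0.033). That call was lost in each of the 7 fits that left out 1 library (adjusted p up to 0.143).

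A pair of regulators at the G1 to S transition changed by amounts within the range of the mitosis genes. E2f1 (chr2:154559400-154569892), a transcription factor that activates S phase genes, stood at 42.0, 44.5 and 38.8 CPM in cultured and at 2.13, 1.59, 1.47 and 2.65 CPM in resident replicates. It rose by 4.44 ± 0.21 (adjusted p = 1.31e-07). Ccne1 (chr7:38097984-38107490), cyclin E1, stood at 14.3, 7.79 and 7.90 CPM in cultured and at 0.226, 0.561, 0.333 and 0.594 CPM in resident replicates. It rose by 4.56 ± 0.38 (adjusted p = 4.76e-06). Every cultured library lay above every resident library for both genes.

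Among the mitotic cyclins, kinases and their regulators, cyclin B2 changed most. Ccnb2 (chr9:70407689-70421554), a B-type cyclin that activates Cdk1 at mitotic entry, stood at 41.1, 36.1 and 48.5 CPM in cultured and at 0.725, 1.17, 0.713 and 1.10 CPM in resident replicates. It rose by 5.53 ± 0.21 (adjusted p = 4.7e-08). Birc5 (chr11:117849237-117855743), survivin, a subunit of the chromosomal passenger complex, stood at 42.4, 69.1 and 41.9 CPM in cultured and at 1.27, 1.82, 0.808 and 1.69 CPM in resident replicates. It rose by 5.22 ± 0.29 (adjusted p = 4.03e-07). Cdca8 (chr4:124918465-124936917), borealin, of the same complex, stood at 27.2, 25.9 and 35.0 CPM in cultured and at 0.860, 1.26, 1.14 and 1.56 CPM in resident replicates. It rose by 4.64 ± 0.22 (adjusted p = 1.54e-07), and Aurkb, the kinase of the complex, rose by 4.12 ± 0.21 (adjusted p = 2.59e-07). No resident library reached the lowest cultured library in any of these genes.

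The checkpoint and degradation genes showed the same order of levels. Bub1 (chr2:127800197-127831859), a kinase of the spindle checkpoint, stood at 19.1, 8.42 and 18.0 CPM in cultured and at 0.543, 0.607, 0.428 and 0.503 CPM in resident replicates. It rose by 4.89 ± 0.34 (adjusted p = 1.61e-06). Ube2c (chr2:164769929-164772902), the ubiquitin-conjugating enzyme of the anaphase-promoting complex, stood at 28.3, 35.1 and 26.1 CPM in cultured and at 0.815, 1.22, 1.09 and 1.01 CPM in resident replicates. It rose by 4.88 ± 0.20 (adjusted p = 5.73e-08). Mki67 (chr7:135689784-135716450), which coats mitotic chromosomes and is used to mark cycling cells, stood at 66.7, 71.7 and 67.3 CPM in cultured and at 3.22, 2.80, 2.52 and 4.71 CPM in resident replicates. Top2a (chr11:98992947-99024199), the topoisomerase that untangles sister chromatids, stood at 67.9, 56.0 and 57.1 CPM in cultured and at 2.67, 4.81, 2.85 and 3.70 CPM in resident replicates, and rose by 4.14 ± 0.20 (adjusted p = 1.83e-07). In none of these genes did a resident library reach the lowest cultured library. The smallest rises of the list were those of Hmgb2, a chromatin protein, at 2.51 ± 0.13 (adjusted p = 2.69e-07) and of Cenpf, a kinetochore protein, at 2.83 ± 0.21 (adjusted p = 2.5e-06).

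The inhibitor Cdkn1a (chr17:29090979-29100722), p21, rose by about as much as Ccnb2. It stood at 771, 1217 and 718 CPM in cultured and at 33.6, 12.3, 15.1 and 15.5 CPM in resident replicates. It rose by 5.59 ± 0.39 (adjusted p = 1.7e-06), and without cultured replicate 2 by 5.28 ± 0.37 (adjusted p = 3.01e-06). High levels of p21 and of mitotic genes thus stood together in the same cultured libraries. Cyclin D1, encoded by Ccnd1 (chr7:144929931-144939831), went the other way, at 27.4, 35.1 and 30.9 CPM in cultured against 57.8, 48.0, 47.6 and 46.3 CPM in resident replicates. It fell by 0.64 on the log2 scale (SE 0.13, adjusted p = 0.00165) and its groups did not overlap. Cdkn1b (chr6:134920401-134925525), p27, stood at 13.3, 25.3 and 13.8 CPM in cultured and at 29.8, 24.2, 27.8 and 29.7 CPM in resident replicates. Cultured replicate 2 reached the resident range, and the call (-0.64 ± 0.23, adjusted p = 0.0303) was lost in 5 of the 7 fits that left out 1 library. Without cultured replicate 2 the call held at -1.04 ± 0.12 (adjusted p = 5.37e-05).

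On TMM-scaled counts, related genes outside the 40 moved in the same direction for the most part. Of 47 other replication genes 36 rose and 6 fell, with a median of 1.39, led by Chaf1b, of the chromatin assembly factor CAF-1, at 4.66 ± 0.26 (adjusted p = 3.65e-07). Of 54 other mitosis genes 50 rose and 1 fell, with a median of 2.71. The centromeric histone Cenpa rose by 5.11 ± 0.13 (adjusted p = 6.28e-09), while Espl1, separase, was the gene that fell (-1.55 ± 0.12, adjusted p = 3.57e-06). Of 18 other G1 cyclins, kinases and E2f factors 12 rose and 2 fell. Ccnd2, cyclin D2, rose from 1.34 ± 0.39 (SD, n = 4) to 114 ± 22.5 CPM (SD, n = 3), a change opposite to that of Ccnd1, whereas Skp2, a ubiquitin ligase subunit that targets p27, fell (-1.71 ± 0.27, adjusted p = 0.000338). Of 17 cell cycle inhibitors and quiescence genes tested, 9 rose and 3 fell. The stress gene Gadd45a rose by 5.68 ± 0.47 (adjusted p = 4.67e-06) and Cdkn1c, p57, fell by 4.07 (SE 0.53, adjusted p = 9.13e-05). Of 14 p53 target genes 11 rose and 2 fell, with a median of 1.78. The summed inhibitor list stood at 2878 CPM in resident replicate 1, against 610 to 659 CPM in the other resident libraries.

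The scale mattered in this comparison for the S phase genes and for the related lists. On deposited TPM the median of all genes shifted by -0.95 in cultured against resident cells. Of the 11445 genes tested there, 1993 were called higher and 7830 lower, so a lower call was the common one. The mitosis genes still had 23 of 23 called higher (median 2.29, which is 3.24 above the median of all genes). S phase genes had a median of 0.31 (1.26 above that of all genes), with 6 called higher and 2 lower, Mcm3 and Tyms. On TPM, Mcm2, Mcm4, Mcm7, Rrm1 and Cdt1 were not called, at -0.08 to 0.31, and Cdc6 was not tested. Of the related lists on TPM, other replication genes had 19 called higher and 16 lower (median 0.21). Their summed TPM was 560.6 to 638.4 in cultured libraries, below the resident 684.9 to 724.6. Other mitosis genes had 39 called higher and 4 lower, and other G1 and E2f genes 4 higher and 8 lower. Inhibitors and quiescence genes had 6 higher and 7 lower, and p53 target genes 8 higher and 2 lower. The medians of these related lists on TPM lay 0.64 to 2.17 above that of all genes. Markers of other cells also differed between cultured and resident libraries. The summed levels in cultured and resident libraries were 58.2 to 80.4 and 6.57 to 10.7 CPM for 4 monocyte markers, 27.0 to 59.4 and 1.95 to 5.35 CPM for 5 astrocyte markers, which in cultured libraries was nearly all Aldoc, and 15.6 to 18.1 and 0.136 to 0.732 CPM for 4 markers of oligodendrocyte precursors. Gja1 and Aqp4 of the astrocyte list stood at 0 in cultured replicates 1 and 2. The monocyte sum of cultured libraries was nearly all Ccr2 (32.9 to 42.8 CPM) and Chil3 (24.6 to 37.1 CPM). Ly6c2 stood at 0.975 CPM or less there. Plac8 went the other way, at 0.049 CPM or less in cultured against 0.181 to 0.823 CPM in resident libraries. Most of the precursor sum in cultured libraries was Cspg4, at 11.6 to 14.5 CPM. The part of such cells in the result was not tested.

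**Figure D3:**
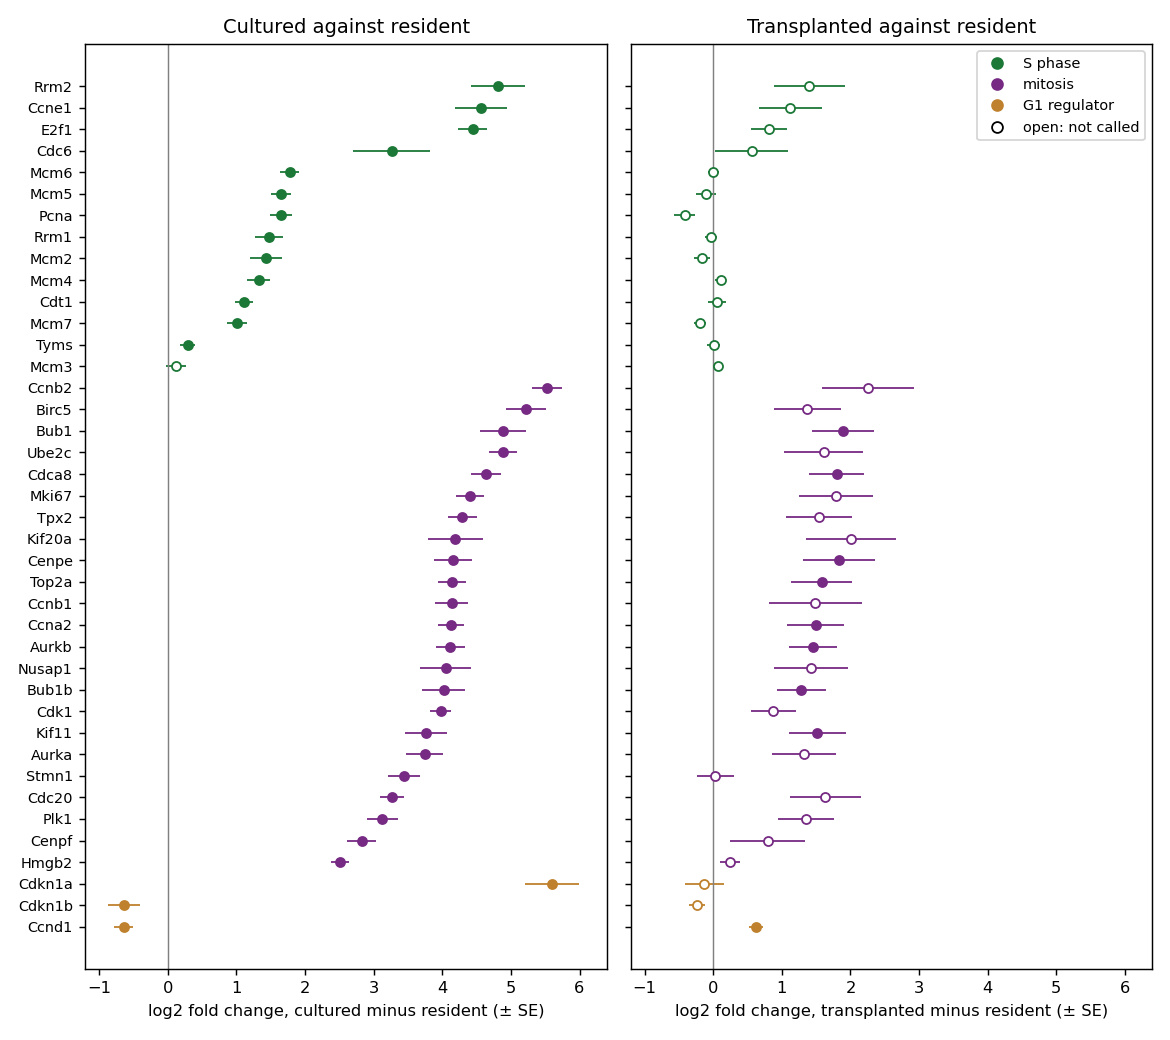
Log2 fold change with its standard error for all 40 genes, cultured minus resident on the left and transplanted minus resident on the right, ordered by the left panel within S phase (green), mitosis (purple) and G1 (brown). Filled points were called at an adjusted p under 0.05. In the right panel the S phase genes are all open, and 8 mitosis genes and Ccnd1 are filled.

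In transplanted against cultured microglia, all 23 mitosis genes fell in the transplanted cells and 12 of the 14 S phase genes fell, Mcm3 and Tyms being the exceptions. Of the 12284 genes tested, 35.5% were called lower and 36.9% higher. The median log2 fold change was -2.62 for mitosis genes (-3.28 without transplanted replicate 4) and -1.65 for S phase genes, against 0.05 over all genes. This comparison uses the same cultured libraries as the one above, so the values are given side by side and not as a second finding.

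Genes of both lists fell by more than 3 on the log2 scale, and several mitosis genes fell further without transplanted replicate 4. Birc5, at 2.73, 2.40, 1.54 and 7.79 CPM in transplanted replicates, fell by 3.84 (SE 0.48, adjusted p = 5.12e-05), and without replicate 4 it fell by 4.53 (SE 0.31, adjusted p = 4.61e-06). E2f1, at 3.55, 2.21, 3.82 and 4.16 CPM, fell by 3.61 (SE 0.21, adjusted p = 3.55e-07). Ccne1, at 0.501, 1.49, 0.559 and 1.21 CPM, fell by 3.42 (SE 0.42, adjusted p = 4.9e-05). All 3 genes stood below every cultured library in every transplanted library. Stmn1 (chr4:134468320-134473843), which encodes the microtubule-destabilising protein stathmin, was at 131.5, 211.6 and 132.8 CPM in cultured and at 11.4, 15.4, 10.1 and 24.1 CPM in transplanted replicates. It fell by 3.40 (SE 0.31, adjusted p = 6.07e-06). Rrm2, at 1.41, 2.79, 1.12 and 4.06 CPM in transplanted replicates, fell by 3.39 (SE 0.39, adjusted p = 2.89e-05). Cdk1 (chr10:69335146-69352912), the kinase that drives mitotic entry, was at 54.9, 51.9 and 49.1 CPM in cultured and at 4.87, 4.90, 3.59 and 11.4 CPM in transplanted replicates. It fell by 3.09 (SE 0.34, adjusted p = 2.26e-05), while its partner Ccnb2 fell by 3.26 (SE 0.63, adjusted p = 0.00103). Without replicate 4, Ccnb2 fell by 4.49 (SE 0.22, adjusted p = 7.49e-07), and Ube2c fell by 4.26 and Ccnb1 fell by 4.04. In the same fit Cdk1 fell by 3.55, Stmn1 fell by 3.70, Rrm2 fell by 3.79, E2f1 fell by 3.71 and Ccne1 fell by 3.56. With Birc5, the mitosis genes Ccnb2, Ube2c and Ccnb1 thus had the 4 largest falls of the 2 lists there. Even replicate 4, the highest transplanted library, lay well below the cultured libraries for Stmn1, Rrm2, Cdk1 and Ccnb2. In Kif20a, however, replicate 4 stood at 15.2 CPM, above cultured replicate 2 at 13.2 CPM. Replicate 4 came close to the lowest cultured library in Plk1 (12.7 against 14.3 CPM), Cenpf (13.3 against 15.7 CPM) and Cdc20 (23.6 against 26.9 CPM).

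A pair of S phase genes was not called. Mcm3 differed by -0.03 ± 0.15 (adjusted p = 0.882) and Tyms by -0.26 ± 0.13 (adjusted p = 0.0921), and neither passed the threshold. The call of 1 mitosis gene depended on single libraries. Cdc20 (chr4:118432901-118437343), an activator of the anaphase-promoting complex, was at 26.9, 29.7 and 30.5 CPM in cultured and at 5.01, 4.996, 4.80 and 23.6 CPM in transplanted replicates. Its call (-1.61 ± 0.53, adjusted p = 0.02) was lost without transplanted replicate 1 (adjusted p = 0.0503) and without replicate 3 (adjusted p = 0.0521). Without replicate 4, Cdc20 fell by 2.57 (SE 0.17, adjusted p = 4.35e-06). Pcna fell by 2.04 (SE 0.14, adjusted p = 8.12e-07) and Mcm2 fell by 1.57 (SE 0.23, adjusted p = 0.000171). On TPM the median of all genes shifted by 0.98, and of 11394 genes tested 1843 were called lower and 7755 higher. There, 19 mitosis genes and 6 S phase genes were called lower. Mcm3 and Tyms were called higher at 1.07 and 0.61. The mitosis genes not called on TPM were Cdc20, Plk1, Cenpf and Kif20a. Transplanted replicate 4 exceeded every cultured library on TPM for Cdc20 (32.9 against at most 20.8) and Cenpf (2.65 against at most 2.34). Mcm2, Mcm4, Mcm7, Rrm1 and Cdt1 were not called on TPM either.

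The G1 regulators went in different directions. Cdkn1a, at 19.1, 15.2, 14.2 and 21.5 CPM in transplanted replicates, fell by 5.70 (SE 0.25, adjusted p = 4.94e-08). Its values lay within the range of resident cells, but the upper end of that range was resident replicate 1 alone, at 33.6 CPM. The other resident libraries stood at 12.3 to 15.5 CPM, below transplanted replicates 1 and 4. Ccnd1, at 67.6, 71.7, 87.7 and 79.0 CPM, rose by 1.28 ± 0.15 (adjusted p = 2.79e-05), and each transplanted library lay above each cultured one. Cdkn1b, at 28.2, 24.6, 19.4 and 22.0 CPM, differed by 0.42 ± 0.25 (adjusted p = 0.157) and was not called, but without cultured replicate 2 it was called at 0.79 ± 0.17 (adjusted p = 0.00267). Of the related lists, 35 of 47 other replication genes fell and 7 rose, 44 of 54 other mitosis genes fell and 1 rose, and 11 of 14 p53 target genes fell and 1 rose. On TPM, where 1843 of all 11394 genes were called lower and 7755 higher, the other replication genes had 16 called lower and 16 higher. Other mitosis genes had 21 lower and 5 higher there, and p53 target genes 5 lower and 2 higher.

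In transplanted against resident microglia, of the 23 mitosis genes 8 rose in transplanted cells and none fell, while none of the 14 S phase genes was called. Ccnd1 rose as well. Of the 11929 genes tested, 7.17% were called higher and 5.86% lower. The median log2 fold change was 1.49 for mitosis genes and 0.03 for S phase genes, against 0.02 over all genes. At an unadjusted p under 0.05, 19 mitosis genes and the S phase genes Rrm2, E2f1 and Ccne1 were higher, against 15.3% of all genes, and 0 mitosis genes and 1 S phase gene, Pcna, were lower, against 12.3%. DESeq2 called 15 mitosis genes and 2 S phase genes, Rrm2 and E2f1, higher, against 6.35% of the 16506 genes with any count. Genes to which DESeq2 gave no adjusted p, among them Ccnb1 and Ccnb2, were counted there as not called. Without transplanted replicate 4 the mitosis median was 0.75 and 9 mitosis genes were called higher, against 5.24% of all genes. Both settings called 5 genes in common, 62.5% of the first list and 55.6% of the second. On TPM, only 2 of the 20 mitosis genes tested and no S phase gene were called higher, against 763 of 11104 genes. Top2a, Ccna2 and Bub1b were not called on TPM, and the mitosis median was 0.90 there.

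Members of the chromosomal passenger complex, which corrects the attachment of chromosomes to the spindle, were among the 8. Cdca8 was at 2.23, 3.75, 2.84 and 7.94 CPM in transplanted replicates, above each of the resident values of 0.860, 1.26, 1.14 and 1.56 CPM. It rose by 1.80 ± 0.40 (adjusted p = 0.0142), by 1.29 ± 0.27 (adjusted p = 0.0155) without transplanted replicate 4, and it was called in each of the 8 fits that left out 1 library. It was the only mitosis member of which this was true. Aurkb (chr11:69045624-69051664) was at 3.64, 3.41, 2.56 and 7.84 CPM in transplanted and at 1.13, 1.495, 1.95 and 1.83 CPM in resident replicates. It rose by 1.45 ± 0.35 (adjusted p = 0.0222) and by 1.00 ± 0.24 (adjusted p = 0.029) without replicate 4. The kinase and the borealin subunit of the passenger complex were thus both called with and without that library. Birc5, of the same complex, was not called, at 1.37 ± 0.48 (adjusted p = 0.0939) and 0.67 ± 0.32 (adjusted p = 0.242) without replicate 4, and its transplanted replicate 3, at 1.54 CPM, lay below the highest resident library at 1.82 CPM.

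The spindle checkpoint kinases gave similar values. Bub1 was at 1.09, 1.39, 1.26 and 4.02 CPM in transplanted replicates and at most 0.607 CPM in a resident library. It rose by 1.89 ± 0.46 (adjusted p = 0.0215) and by 1.25 ± 0.28 (adjusted p = 0.0207) without replicate 4. Bub1b (chr2:118598202-118641592), BubR1, was at 4.46, 6.05, 4.57 and 13.7 CPM in transplanted and at 3.17, 3.41, 2.28 and 2.97 CPM in resident replicates. It rose by 1.28 ± 0.35 (adjusted p = 0.0389) and by 0.77 ± 0.20 (adjusted p = 0.0361) without replicate 4. Every transplanted library exceeded every resident library for both genes.

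Ccna2 (chr3:36564865-36573038), cyclin A2, which acts from S phase to mitosis, was at 4.41, 5.38, 4.33 and 15.6 CPM in transplanted and at 1.90, 3.22, 2.52 and 2.93 CPM in resident replicates. It rose by 1.49 ± 0.42 (adjusted p = 0.041) and by 0.84 ± 0.21 (adjusted p = 0.0315) without replicate 4. The remaining 3 called genes lost the call without that library. Top2a, at 5.69, 9.18, 4.98 and 22.0 CPM in transplanted replicates, rose by 1.58 ± 0.45 (adjusted p = 0.0426), and stood at 0.92 ± 0.27 (adjusted p = 0.06) without it. Cenpe (chr3:135212563-135273540), a kinetochore motor, was at 2.23, 2.88, 3.07 and 11.03 CPM in transplanted and at 1.31, 1.68, 0.713 and 1.69 CPM in resident replicates. It rose by 1.83 ± 0.52 (adjusted p = 0.0445), and stood at 1.01 ± 0.30 (adjusted p = 0.0639) without replicate 4. Kif11 (chr19:37376382-37421863), the motor that pushes spindle poles apart, was at 2.64, 3.32, 2.84 and 8.52 CPM in transplanted and at 1.49, 1.36, 0.998 and 2.20 CPM in resident replicates. It rose by 1.52 ± 0.41 (adjusted p = 0.0365), and stood at 0.96 ± 0.27 (adjusted p = 0.0546) without replicate 4. In all 3 genes the other transplanted libraries still lay above every resident library.

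Leaving out resident libraries had a larger effect on the count than leaving out transplanted ones. Without resident replicate 1 or 2, 1 mitosis gene was called, and without resident replicate 3 or 4, 2 were called. Without transplanted replicate 1, 2 or 3, the number was 12, 11 or 12. Every transplanted library lay above every resident library for 13 of 23 mitosis genes, 0 of 14 S phase genes and 10.2% of all genes tested.

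Other mitosis genes had differences of similar size that were not called. Mki67, at 5.01, 5.81, 6.89 and 28.1 CPM in transplanted replicates, differed by 1.79 ± 0.54 (adjusted p = 0.054). Without replicate 4 the difference was 0.84 ± 0.23 and was called (adjusted p = 0.0475), and each transplanted library exceeded each resident one. Ccnb2, at 1.82, 2.16, 1.63 and 12.1 CPM, differed by 2.26 ± 0.67 (adjusted p = 0.0508), and it was called at 1.01 ± 0.28 (adjusted p = 0.0483) without replicate 4. Cdc20 and Plk1, the polo-like kinase, were likewise called without replicate 4 and not with it. Ccnb1 (chr13:100778739-100786486), cyclin B1, was at 2.18, 2.16, 2.89 and 18.6 CPM in transplanted and at 2.13, 2.76, 1.81 and 2.52 CPM in resident replicates. Its difference of 1.49 ± 0.67 (adjusted p = 0.183) was 0.07 ± 0.22 (adjusted p = 0.885) without replicate 4. Cenpf was at 2.28, 3.65, 1.86 and 13.3 CPM in transplanted replicates, and its difference of 0.79 ± 0.55 (adjusted p = 0.382) became -0.23 ± 0.25 (adjusted p = 0.645). In both genes the other transplanted libraries overlapped the resident range. Stmn1 and Hmgb2 differed by 0.03 ± 0.27 (adjusted p = 0.958) and 0.25 ± 0.15 (adjusted p = 0.319).

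Within the S phase genes, the helicase and clamp genes had overlapping levels in both sorted groups. Mcm2 was at 12.1, 12.5, 15.1 and 14.2 CPM in transplanted replicates and differed by -0.16 ± 0.12 (adjusted p = 0.411). Mcm3 was at 73.2, 77.7, 75.0 and 78.1 CPM and differed by 0.07 ± 0.06 (adjusted p = 0.438). Pcna was at 25.1, 26.2, 20.8 and 19.5 CPM and differed by -0.41 ± 0.15 (adjusted p = 0.11). The other helicase subunits, Rrm1, Tyms and Cdt1 differed by -0.19 to 0.11. The largest differences were in the 4 genes that were lowest in resident cells. Rrm2 differed by 1.40 ± 0.52 (adjusted p = 0.109), Ccne1 by 1.12 ± 0.46 (adjusted p = 0.14), E2f1 by 0.81 ± 0.26 (adjusted p = 0.067) and Cdc6 by 0.56 ± 0.53 (adjusted p = 0.54). E2f1 was called at 0.96 ± 0.24 (adjusted p = 0.0272) without transplanted replicate 2. In resident replicate 3 Cdc6 stood at 0.143 CPM, about the level of 3 counts.

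Cyclin D1 was the member with the smallest adjusted p in this comparison. Ccnd1 rose by 0.62 ± 0.10 (adjusted p = 0.0025), and it was called in each of the 8 fits that left out 1 library (adjusted p up to 0.0132). Its lowest transplanted library, at 67.6 CPM, exceeded the highest resident library, replicate 1 at 57.8 CPM. Transplanted replicate 4 was not apart from the others in this gene. Cdkn1a differed by -0.13 ± 0.29 (adjusted p = 0.814) and Cdkn1b by -0.24 ± 0.12 (adjusted p = 0.232).

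**Figure D4:**
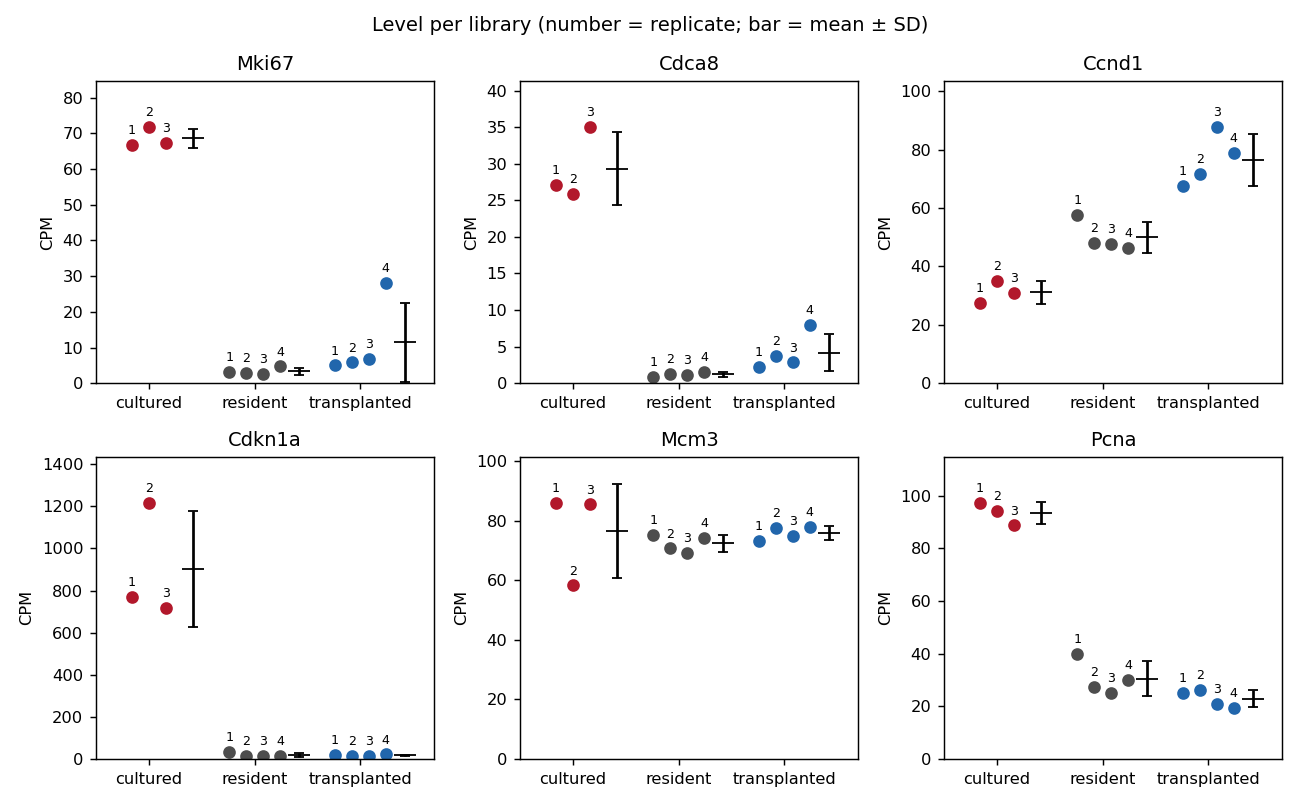
CPM of 6 genes in each library, numbered by replicate, with the mean and SD of each group as a bar. Transplanted replicate 4 lies highest for Mki67 at 28.1 CPM, whereas the transplanted libraries lie close together for Mcm3 and all exceed the resident libraries for Ccnd1.

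Related genes outside the 40 were called mainly in the mitosis list. Of 51 other mitosis genes tested 13 rose and none fell, with a median of 0.93, and without transplanted replicate 4 there were 8, with a median of 0.46. The kinesin gene Kif2c rose by 2.37 ± 0.60 (adjusted p = 0.0269), the spindle gene Aspm by 2.10 ± 0.57 (adjusted p = 0.0366) and the checkpoint kinase gene Ttk by 2.07 ± 0.55 (adjusted p = 0.0346). Without replicate 4, Aspm was at 1.21 ± 0.33 (adjusted p = 0.0481), whereas Kif2c at 2.23 ± 0.65 (adjusted p = 0.06) and Ttk at 1.45 ± 0.45 (adjusted p = 0.0797) were no longer called. Of 47 other replication genes 1 rose, Dck, and 1 fell, Prim2, with a median of 0.08, and neither was called without replicate 4 (adjusted p = 0.0539 and 0.0536). Of 18 other G1 and E2f genes 2 rose, E2f8 at 1.99 ± 0.42 (adjusted p = 0.0113) and E2f2 at 1.00 ± 0.24 (adjusted p = 0.0204), both called without replicate 4 as well. Of 16 inhibitors and quiescence genes tested 1 fell, Cdkn1c, which went from 2.88 ± 0.41 to 1.147 ± 0.64 CPM (SD, n = 4 each) and lost its call without replicate 4 (adjusted p = 0.0842). Of 13 p53 target genes 2 rose and 1 fell.

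Markers of other cells moved with this comparison in a few lists. The 4 markers of oligodendrocyte precursors summed to 0.136 to 0.732 CPM in resident and 1.82 to 4.84 CPM in transplanted libraries, highest in replicate 4. Nearly all of this was Cspg4 at 1.502, 1.39, 3.45 and 4.55 CPM, while Pdgfra stood at 0.228 CPM or less, Olig1 at 0.384 CPM or less and Olig2 at 0.0932 CPM or less in transplanted libraries. The 4 endothelial markers found summed to 7.79 to 12.6 CPM in resident and 13.9 to 19.7 CPM in transplanted libraries, mostly Kdr, with Cldn5 at 0.0932 CPM or less. Neural progenitor markers summed to 1.40 to 2.67 and 0.364 to 1.35 CPM, with Sox2 at 0 in every sorted library. Monocyte markers summed to 6.57 to 10.7 and 1.64 to 2.50 CPM, mostly Ccr2. The part of these cells in the mitosis result was not tested.

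Between genes, levels can be compared only per length, for which the deposited TPM serves. In resident cells Pcna (62.7 ± 13.8 TPM) and Mcm3 (57.0 ± 2.12 TPM) led the S phase genes and did not differ beyond their spread. Mcm7 followed at 25.0 ± 2.47 TPM and Tyms at 21.6 ± 1.56 TPM, and Cdc6 was last at 0.260 ± 0.240 TPM (SD, n = 4 each). Among the mitosis genes Stmn1 led in each group, at 190 ± 44.2 TPM in cultured (SD, n = 3), 38.1 ± 8.77 TPM in resident and 39.8 ± 16.8 TPM in transplanted cells (SD, n = 4 each). Hmgb2 was second in both sorted groups, at 15.8 ± 1.48 and 19.05 ± 4.29 TPM, and no other mitosis gene exceeded 4.20 TPM in the mean of resident cells. Stmn1 and Hmgb2 were thus the most abundant mitosis genes of resident cells.

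Some values carry a limit of counting. Of the members, 8 overlap another gene of the table in the RefSeq annotation. Among them are Kif20a, which shares 4930 bases with Cdc23, Ccna2, which shares 863 bases with Exosc9, and Ccnd1, which shares 818 bases with LTO1. The labels give no strand, so reads in such stretches cannot be assigned to either gene with certainty. Pseudogenes named after Pcna, Tyms, Ccnb1 and Ccnb2 exist as well, and the values of these genes are uncertain to that extent.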

How the data were processed

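RNA from 11 libraries was analysed as deposited. Per the file headers, the deposited table gives each library an expected count, a TPM and an FPKM per gene. The authors' expected counts are estimates without scaling to depth, whole in 81.5% to 84.9% of a library's values. The authors' TPM values are per length and sum alike in each library. The 11 FPKM columns deposited by the authors were not used. HISAT, Bowtie2 and the build GRCm38.p6 come from the submitters' processing notes. For tool versions, the counter, annotation and filters, the sources used here say nothing. The labels' protocols name TRIzol extraction and a Smart-Seq library from 1 ng of RNA.

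Libraries were grouped by title. Expected counts were rounded to whole numbers and edgeR 4.0.16 was run on 2 groups at a time (R 4.3.3; TMM, filterByExpr, quasi-likelihood test, Benjamini-Hochberg over all genes, called under 0.05). Alternatives were DESeq2 1.42.0, limma 3.58.1 on log2(TPM + 1) and log2(TPM + 0.1) with a filter at 1 TPM, upper-quartile scaling, no filter, 1 fit over all groups, a replicate block, and each library left out. The TMM factors were 0.743 to 0.774 in cultured and 1.09 to 1.13 in the other libraries. Symbols and coordinates came from a RefSeq table of the same build, which matched 16845 of 16894 identifiers (49 did not match). The fitting script was tested on simulated counts.

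The 40 genes and all other lists were chosen with earlier results of these data known. Values per library were given for, per comparison, the 8 S phase or mitosis genes with the largest called fold in each direction, the 3 G1 regulators, Mki67, Top2a, Mcm2, Pcna, Ccnb2, and genes whose call differs from most of their list; of other lists the 3 largest called folds per direction may be named. Cdc6 in cultured against resident cells, and Cdc20, Kif20a, Plk1 and Cenpf in transplanted against cultured cells, were named after their values were seen. The same holds for Cdc20, Plk1, Ccnb1, Cenpf and the remaining uncalled genes in transplanted against resident cells. Libraries carry no molecular identifiers, so the floor of 3 counts covers counting error only.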

Additional observations from a re-analysis of the deposited data

Results flagged for a closer look

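In transplanted replicate 4, 15 mitosis genes stood far above the other transplanted libraries, each with a gap to the next library that exceeded Dixon's 95% critical value for 4 samples. Its levels were 28.1 CPM for Mki67, 18.6 CPM for Ccnb1, 12.1 CPM for Ccnb2, 15.6 CPM for Ccna2, 11.4 CPM for Cdk1 and 23.6 CPM for Cdc20. Those of the checkpoint and spindle kinases were 4.02 CPM for Bub1, 10.2 CPM for Aurka and 12.7 CPM for Plk1. Those of kinetochore, motor, spindle and degradation genes were 11.03 CPM for Cenpe, 13.3 CPM for Cenpf, 8.52 CPM for Kif11, 15.2 CPM for Kif20a, 9.73 CPM for Tpx2 and 7.94 CPM for Ube2c. The summed level of the 23 mitosis genes in that library, 320 CPM, passed the same rule.

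In resident replicate 1, Ccnd1 at 57.8 CPM and Cdkn1a at 33.6 CPM stood above the other resident libraries in the same way. The summed S phase level of resident replicate 3, 263 CPM, stood below the others. The rule was applied to 84 sets of 4 libraries and marked 19, where chance marks about 1 in 20; genes of 1 library are not independent of each other.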

How the results depend on the processing

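Scale and tool changed several counts, and the cause was not tested. On TPM, with a pseudocount of 1 or 0.1, 6 S phase genes were called higher in cultured than in resident cells and 6 lower in transplanted than in cultured cells. Mcm3 was then lower in cultured cells (-0.98 and -1.002) and higher in transplanted than in cultured cells (1.07 and 1.09), as was Tyms (0.61 and 0.64). In transplanted against resident cells, DESeq2 called 18 members (2 S phase, 15 mitosis) and both TPM settings 3 (2 mitosis). Leaving out 1 library gave 2 to 13 members, 0 to 1 S phase and 1 to 12 mitosis genes, and the fits that left out a library also tested other numbers of genes. Cultured over resident sums were 1.57 (S phase) and 8.86 (mitosis) on plain totals and 1.21 and 6.52 on TPM, with mitosis at 12.3 to 13.5 when 1 library was left out. Transplanted over cultured S phase sums were 0.623 on plain totals, 0.795 on TPM and 0.394 to 0.452 with 1 library left out, and the mitosis sum was 0.159, against 0.282 on TPM and 0.103 without transplanted replicate 4. Transplanted over resident S phase sums were 0.959 on TPM and 0.955 to 0.991 with 1 library left out. With the E2F core GCGGGA in place of the longer motifs, 71.4% of S phase, 50.0% of mitosis and 30.8% of all windows held a match.

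Replicate numbers did not pair the libraries (correlations of deviations from -0.069 to 0.054). With the replicate block, transplanted against resident cells had 1 S phase gene and 10 mitosis genes called higher. The next count covers 48 pairs of a named gene and a comparison. Fits that left out 1 library enter it only at their lowest and highest fold, so calls lost in the others are missed. In transplanted against resident cells, for example, Bub1 and Ccna2 lost their calls without each of resident replicates 1 to 4 (adjusted p 0.0531 to 0.104). Of the values so counted under alternatives, 382 kept direction and call, 18 lost the call, 16 gained it and 11 changed sign. Besides the TPM values above, none of these sign changes was called: with upper-quartile scaling Mcm3 stood at -0.048 in cultured against resident and 0.12 in transplanted against cultured cells. With 1 library left out, Mcm3 ranged from -0.00203 to 0.247 and from -0.185 to 0.0619 in these comparisons, and Cdkn1a from -0.301 to 0.278 in transplanted against resident cells.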

Other observations

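Genes outside the lists also marked transplanted replicate 4. There, 310 of the 11929 genes tested stood at least 2-fold above the geometric mean of the other transplanted libraries, and 54 of them (17.4%) belonged to the S phase, mitosis, other replication and other mitosis lists. The 54 included 21 of 23 mitosis members and 1 of 14 S phase members, whereas 2.60% of all genes tested reached this ratio. Of the 30 genes with the highest ratios, 14 belonged to these lists. The kinetochore gene Nuf2 stood at 6.0 CPM in replicate 4 and at most 1.001 CPM in the other transplanted libraries, and Prc1, which bundles the spindle midzone, at 15.1 and at most 4.47 CPM. Among genes of other kinds were Clec12a, a C-type lectin receptor, at 9.15 and at most 5.32 CPM, and Asns, asparagine synthetase, at 7.98 and at most 2.89 CPM. Of 51 other mitosis genes tested, 31 were at least 2-fold higher in that library (median ratio 2.41), against 1 of 47 other replication genes (median ratio 1.05).

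In cultured replicate 2, the inhibitor genes Cdkn1a and Cdkn1b stood at 1.64 and 1.87 times the geometric mean of the other cultured libraries, while Mcm2 stood at 0.508, Rrm1 at 0.544, Bub1b at 0.422 and Kif20a at 0.413 times. In the same library Mki67 stood at 1.07, Birc5 at 1.64 and Stmn1 at 1.60 times, so mitosis genes lay on both sides of the other libraries.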
